A study of Arabidopsis thaliana with 27 samples.

Results

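Heart-stage seeds of Arabidopsis thaliana, wild type Columbia-0 (Col-0), were compared between plants grown at 27 °C on average (days of 28 °C and nights of 26 °C), which the study calls severe stress, and plants grown at 25 °C on average (days of 26 °C and nights of 24 °C), its mild stress. Both groups shared accession, long days and stage label, and differed by the temperature after the onset of flowering. The methods describe growth chambers set to different temperatures, so chamber and temperature cannot be told apart. Neither group carried a mutation or a transgene. Members were the RNA-seq libraries labelled heart stage and 27 °C or 25 °C, 3 of each, or 6 of the 27 libraries of the series; the other 21 hold bent and mature seeds and seeds grown at 23 °C. Each library was made from entire seeds, so embryo, endosperm and seed coat were measured together. In such bulk samples, fewer cells of a type and less RNA per cell cannot be told apart. The study's methods describe the 3 libraries of a group as biological replicates without saying whether they came from separate plants or growth rounds, so p-values measure the spread between these libraries.

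At the heart stage the embryo forms its cotyledons while the endosperm and the seed coat still make up most of the seed. Cells of the coat then fill with flavonoid pigment precursors and pectin-rich mucilage, and the embryo later accumulates storage proteins and oil under the control of the maturation regulators LEC1, LEC2, FUS3 and ABI3. In warm plants, heat shock factors bind short repeats upstream of chaperone genes and raise their transcription, and the chaperones keep other proteins folded.

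The 6 libraries held 17227596 to 19091132 counts. Replicates correlated with r of 0.990 to 0.993 at 27 °C and 0.982 to 0.986 at 25 °C across genes, and every pair differed by more than sampling noise. The first principal component held 80.5% of the variance of the 2000 most variable genes and set the 27 °C libraries (-51.5 to -38.5) apart from those of 25 °C (33.5 to 55.5). Replicate 3 of 25 °C lay apart on the second component, at -29.7 against 13.1 and 14.0 for the other 25 °C libraries. That library held the highest 25 °C level of most heat shock genes and the lowest of the pollen genes. Pollen, which can adhere to dissected seeds, was the only outside tissue with a marker list other than green tissue, and its summed level was 22.1, 17.9 and 26.6 TPM (counts scaled by transcript length and library total) at 27 °C, against 103, 59.4 and 23.2 at 25 °C. Of 10 pollen markers 8 were tested, 0 were higher and 5 lower, which became 8 without replicate 3 of 25 °C, 2 without replicate 1 of 25 °C and 1 without any of the other 4 libraries. Embryo markers differed less. Of the 6 tested, ATML1, an epidermal regulator, and WOX8, of the basal lineage, were lower (log2 fold changes of -0.47 and -0.49), the list having 1 lower gene without replicate 2 or 3 of 27 °C or replicate 2 of 25 °C, while STM, of the shoot meristem, had 534, 463 and 485 normalised counts at 27 °C against 436, 479 and 389 at 25 °C.

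Of 20456 genes tested, 2352 were higher (11.5%) and 2046 lower (10%) at 27 °C (DESeq2, Benjamini-Hochberg adjusted p under 0.05). These shares are the background for every count of list members in heart seeds. The higher genes had a median log2 fold change of 0.68 and the lower genes one of -0.56. Large changes were mostly upward: 347 higher and 52 lower genes reached an absolute log2 fold change of 2. The 3 libraries of each temperature did not overlap for 2335 of the higher and 1981 of the lower genes, where over all genes tested 22.3% did not overlap in the upward and 21.2% in the downward direction. The edgeR quasi-likelihood test called 12.7% of genes higher and 10.5% lower, and shared 2259 higher and 1832 lower calls. The number of lower genes was 1236 without replicate 2 and 1324 without replicate 3 of 27 °C. With size factors set by library totals the median of all genes moved to 0.04, against -0.01, and 61.9% of the called genes were higher in place of 53.5%.

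The genes with the largest increases were nearly silent at 25 °C and well expressed at 27 °C. AT1G62070, an uncharacterized gene on chromosome 1, had 5932, 5689 and 5108 normalised counts (reads scaled between libraries) at 27 °C, against 1.95, 0 and 0.996 at 25 °C, a level at least 1859-fold higher, where the bound sets each 25 °C library at 3 counts. Its neighbour in name AT1G62220, also uncharacterized, had 1444, 1888 and 1416 at 27 °C and 0 in every 25 °C library, at least 528-fold higher. RLP55, a receptor-like protein gene, had 1868, 1698 and 1432 at 27 °C, against 0.975, 0 and 1.99 at 25 °C, at least 555-fold higher. In all 3 genes each 27 °C library exceeded every 25 °C library by a wide margin. AT5G05020, of the Pollen Ole e 1 allergen and extensin family, was at least 347-fold higher, the lipid-transfer family gene AT1G03103 at least 89.1-fold, the copper amine oxidase gene AT1G31670 at least 77.1-fold and the glycosyl hydrolase gene GH9B15, which overlaps another gene, at least 69.6-fold. The other 3 of the 10 largest increases were the cruciferins CRU1, CRU2 and CRU3, described with the storage proteins. In bent seeds of 27 °C these 10 genes were at higher levels still: heart seeds held 5.10 to 35.1% of the bent level at 27 °C (median 12.2%) and 0 to 0.134% at 25 °C.

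Decreases were smaller. The pectin methylesterase inhibitor family gene AT4G03930 had 114, 113 and 121 normalised counts at 27 °C, against 1154, 2742 and 975 at 25 °C (log2 fold change -3.81 ± 0.48, SE; adjusted p = 1.34e-13). HAK5, a high-affinity potassium transporter, had 22.2, 15 and 19.3 at 27 °C, against 135, 320 and 167 at 25 °C (-3.47 ± 0.37). ASN1, an asparagine synthase that overlaps another gene, had 62.3, 15 and 11.6 at 27 °C, against 177, 195 and 331 at 25 °C (-2.99 ± 0.78). No 27 °C library of these genes reached the lowest 25 °C library. THI2.1, a thionin (antimicrobial peptide) gene that also overlaps a neighbour, was lower (-2.60). AT1G11590, another gene of the invertase and pectin methylesterase inhibitor annotation, had -2.44, and MBP2, a myrosinase-binding protein, -2.43. The others were PGL5, a phosphogluconolactonase (-2.25), the rhamnogalacturonate lyase family gene AT4G38030 (-2.21) and the transporter AT5G46040 (-2.17), the last 2 overlapping other genes. The lipase family gene AT1G54020 (-2.27) lost its call without replicate 2 of 25 °C (adjusted p = 0.0891).

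**Figure D1:**
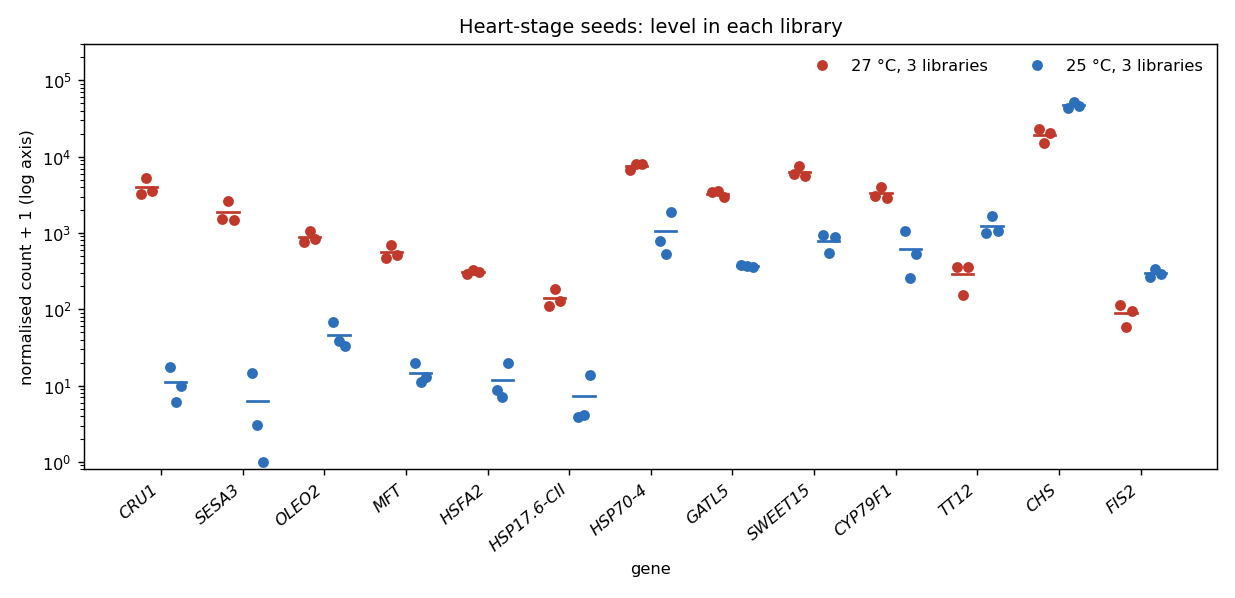
Normalised counts plus 1 (log axis) of 13 genes in each heart-stage library, 27 °C (red) left of 25 °C (blue); points are libraries and lines are means. CRU1 lay at 3291 to 5215 at 27 °C against 5.12 to 16.6 at 25 °C, and TT12, CHS and FIS2 at the right lay lower at 27 °C in every library.

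Genes of the seed reserves rose together. All 16 storage and oil body protein genes tested were higher at 27 °C (background 11.5%), in each of the 6 fits that left out 1 library as well, and their median log2 fold change was 5.46, against -0.01 over all genes. Their summed level was 937, 1470 and 973 TPM at 27 °C, against 112, 62.3 and 95.7 TPM at 25 °C. Replicate 2 of 27 °C was the highest and replicate 2 of 25 °C the lowest.

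Cruciferins are the globulins of the seed's protein bodies. CRU1 had 3291, 5215 and 3506 normalised counts at 27 °C, against 16.6, 5.12 and 8.96 at 25 °C (log2 fold change 8.61 ± 0.45, adjusted p = 1.61e-79). CRU3 had 1795, 3226 and 1788 at 27 °C, against 11.7, 0 and 2.99 at 25 °C (8.85 ± 1.04). CRU2 had 609, 1159 and 612 at 27 °C, against 3.90, 0 and 0.996 at 25 °C (8.90 ± 0.82). The albumins SESA1 to SESA5 are the smaller storage proteins and lie mostly side by side on chromosome 4, so reads of similar copies could be shared between them. SESA3 had 1536, 2632 and 1492 at 27 °C, against 13.7, 2.05 and 0 at 25 °C (8.49 ± 1.25). SESA2 had 1142, 1924 and 1166 at 27 °C, against 11.7, 2.05 and 2.99 at 25 °C (7.97 ± 0.66). SESA5 was at least 65.7-fold higher, its 25 °C libraries being at 3 counts or fewer. Oleosins coat the oil bodies of the embryo and were already detected at 25 °C. OLEO2 had 770, 1063 and 828 at 27 °C, against 67.3, 37.9 and 31.9 at 25 °C (4.28 ± 0.23). OLEO1 had 858, 1354 and 841 at 27 °C, against 63.4, 30.7 and 76.7 at 25 °C (4.16 ± 0.41). OLEO3, the oleosin with the smallest change, had 1507, 1924 and 1623 at 27 °C, against 660, 354 and 603 at 25 °C (1.64 ± 0.20).

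The RY element (CATGCA or, on the other strand, TGCATG), bound by FUS3, LEC2 and ABI3, was searched in the window from 250 bases before to 50 after each gene's start. It was present in 14 of the 16 storage and oil body promoters (87.5%), in 13% of the promoters of higher genes, in 24.1% of those with a log2 fold change of at least 2, in 10.5% of those of lower genes and in 8.7% of all 20411 promoters of tested genes. The core of the abscisic acid response element (ACGTG or CACGT) was in 62.5% of the storage and oil body promoters and 27.2% of all. CRU2, with the largest log2 fold change of the list (8.90), held 0 matches of either element. The 250 bases before the start of 3 genes are shown as examples that hold several RY elements. They are from the RefSeq annotation of TAIR10.1, CRU1 at chr5:17758337-17758586 (minus strand), SESA3 at chr4:13611546-13611795 (plus strand) and OLEO1 at chr4:12900180-12900429 (plus strand), written 5′ to 3′ with RY elements in capitals.
CRU1: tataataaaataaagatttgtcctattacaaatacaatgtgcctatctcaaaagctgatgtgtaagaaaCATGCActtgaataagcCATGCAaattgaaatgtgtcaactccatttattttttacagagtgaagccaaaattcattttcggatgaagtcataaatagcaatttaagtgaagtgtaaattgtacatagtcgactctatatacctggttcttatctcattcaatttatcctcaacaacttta
SESA3: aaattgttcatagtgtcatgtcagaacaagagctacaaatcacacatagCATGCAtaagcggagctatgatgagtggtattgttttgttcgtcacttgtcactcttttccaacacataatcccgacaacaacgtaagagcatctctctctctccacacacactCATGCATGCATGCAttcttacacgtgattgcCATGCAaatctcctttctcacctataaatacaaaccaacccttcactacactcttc
OLEO1: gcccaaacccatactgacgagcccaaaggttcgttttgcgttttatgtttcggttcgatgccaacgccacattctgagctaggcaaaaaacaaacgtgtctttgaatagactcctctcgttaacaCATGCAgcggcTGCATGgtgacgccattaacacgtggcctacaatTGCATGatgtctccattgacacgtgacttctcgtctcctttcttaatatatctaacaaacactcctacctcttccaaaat
CRU1 held 2 matches, SESA3 held 7, of which 5 overlap in one run, and OLEO1 held 3. A match is a description of the sequence and not a measured binding site.

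The regulators of maturation changed less than the reserve genes. Of 16 tested, 9 were higher and 0 lower at 27 °C, with a median log2 fold change of 0.41. MFT, a regulator of dormancy and germination, had 472, 695 and 510 normalised counts at 27 °C, against 19, 10.2 and 11.9 at 25 °C (5.36 ± 0.29, adjusted p = 2.64e-72). The embryo bZIP factor gene BZIP67 had 442, 553 and 402 at 27 °C, against 101, 73.7 and 116 at 25 °C (2.26 ± 0.20). FUS3 had 969, 1187 and 939 at 27 °C, against 364, 234 and 348 at 25 °C (1.71 ± 0.17). In these 3 genes the libraries of the 2 temperatures did not overlap. EEL, another bZIP gene, rose by 1.2, L1L, a subunit of the NF-Y factor, by 0.79, ABI3 by 0.60 and VAL1, a repressor of the maturation program, by 0.39 on the log2 scale. LEC1, by contrast, had 1421, 1580 and 1351 at 27 °C, against 1477, 1444 and 1526 at 25 °C, and did not pass the test. LEC2 (0.41, adjusted p = 0.0319) kept its call in only 1 of the 6 fits without 1 library. The dormancy gene DOG1 had 27.5, 35.3 and 33.8 at 27 °C, against 16.6, 3.07 and 19.9 at 25 °C (adjusted p = 0.0859).

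Late embryogenesis abundant (LEA) proteins protect the embryo when it dries. Of 17 LEA genes, 11 were tested, 0 were higher and 1 was lower, LEA27 (470, 417 and 444 at 27 °C, against 544, 623 and 739 at 25 °C; -0.52 ± 0.14). The other 6 held at most 5 estimated counts in any of the 6 heart libraries. The list's median log2 fold change was 0.39.

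Of the abscisic acid genes, 3 of 11 tested were higher and 0 lower. NCED9, which cuts carotenoids in the step that commits them to this hormone in seeds, had 547, 754 and 602 normalised counts at 27 °C, against 80.0, 12.3 and 21.9 at 25 °C (4.06 ± 0.76, adjusted p = 1.98e-06). CYP707A4, which breaks the hormone down, had 45.4, 48.0 and 54.1 at 27 °C, against 9.75, 9.21 and 16.9 at 25 °C (2.04 ± 0.41). ABA3, a cofactor enzyme of the last synthesis step, rose by 0.32. Genes of both synthesis and breakdown were thus among the 3. NCED6, the endosperm member, had 226, 224 and 189 at 27 °C, against 172, 207 and 245 at 25 °C. Of 8 phosphatases that repress the hormone's signal 2 were higher, HAI1 (0.40) and AHG1 (2.00), the second at 11.6 to 16 normalised counts at 27 °C against 2.05 to 4.88 at 25 °C and kept in 1 of the 6 fits without 1 library.

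Supply of carbon and nitrogen to the embryo runs through sugar and amino acid exporters of the coat and endosperm. The list of supply genes also holds cell wall invertases and AAP amino acid transporters. Of its 13 genes tested, 9 were higher and 2 lower, with summed levels of 1456, 1656 and 1426 TPM at 27 °C, against 696, 731 and 754 TPM at 25 °C. The sucrose exporter SWEET15 had 5862, 7487 and 5667 normalised counts at 27 °C, against 946, 541 and 898 at 25 °C (2.99 ± 0.18, adjusted p = 1.41e-56). SWEET11 had 2986, 3330 and 2781 at 27 °C, against 1195, 1271 and 1477 at 25 °C (1.21 ± 0.11), and SWEET12 rose by 0.82. The amino acid exporter UMAMIT25 had 5257, 6208 and 5020 at 27 °C, against 1604, 1581 and 1671 at 25 °C (1.76 ± 0.10). UMAMIT28 and UMAMIT24 rose by 3.22 and 3.13. All of these kept their calls when any 1 library was left out. The 2 lower genes were the amino acid transporters AAP1 (-0.38) and UMAMIT14 (-0.48), and 4 were lower without replicate 3 of 25 °C. The sucrose importer of the endosperm SUC5 had 1929, 2060 and 2089 at 27 °C, against 2128, 1925 and 2566 at 25 °C, and did not pass the test.

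Of 14 genes of oil synthesis, 7 were higher and 2 lower (median 0.23). FAE1, which elongates fatty acids for seed oil, had 162, 203 and 153 normalised counts at 27 °C, against 0.975, 0 and 0.996 at 25 °C, at least 57.4-fold higher. The sucrose synthase gene SUS2 had 571, 723 and 554 at 27 °C, against 97.5, 98.3 and 95.6 at 25 °C (2.67 ± 0.16, adjusted p = 4.7e-58). Enzymes of the core pathway moved little: BCCP2, a subunit of the acetyl-CoA carboxylase of plastids, rose by 0.62, the triacylglycerol enzyme DGAT1 by 0.50 and the pyruvate kinase PKP-BETA1 by 0.30. WRI1, the factor that drives this pathway, had 2018, 2411 and 2041 at 27 °C, against 1888, 1648 and 1948 at 25 °C, and was not called (adjusted p = 0.0881). The lower genes PDAT1 (-0.33) and ROD1 (-0.39) each kept the call in 3 of the 6 fits without 1 library; 0 genes of the list were lower without replicate 2 or replicate 3 of 27 °C.

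The seed coat showed 2 patterns. Of 20 genes of mucilage, the pectin gel stored in the coat's outer cells, 10 were higher and 1 lower. The summed level of the list overlapped between the groups, at 2056, 2269 and 2164 TPM at 27 °C, against 2081, 1650 and 1671 TPM at 25 °C. GATL5, a glycosyltransferase-like gene of pectin synthesis, had 3412, 3519 and 2931 normalised counts at 27 °C, against 379, 374 and 356 at 25 °C (3.15 ± 0.10, adjusted p = 2.95e-206). MUM4, a rhamnose synthase, had 9185, 10382 and 9126 at 27 °C, against 3992, 2423 and 2398 at 25 °C (1.7 ± 0.27). MUM2, a galactosidase that matures the gel, had 1997, 2046 and 1947 at 27 °C, against 1045, 919 and 1029 at 25 °C (1.00 ± 0.08). None of the 27 °C libraries overlapped those of 25 °C in these genes. PMEI6, an inhibitor of pectin methylesterase, rose by 1.42, MUCI10, a galactosyltransferase of mucilage, by 1.12, and GL2, the epidermal regulator upstream of MUM4, by 0.61. SBT1.7, a subtilisin protease, was the 1 lower gene, at 26453, 27384 and 26886 at 27 °C, against 38243, 37695 and 35382 at 25 °C (-0.46 ± 0.06). The peroxidase PRX36 received no adjusted p, since 1 library stood apart: it had 1148, 2350 and 2171 at 27 °C, against 2151, 161 and 57.8 at 25 °C.

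Suberin, a waxy polyester of the inner seed coat, followed the same direction. Of 15 suberin genes tested, 12 were higher and 0 lower, with a median of 1.68. The transporter ABCG20 had 358, 554 and 370 normalised counts at 27 °C, against 34.1, 26.6 and 19.9 at 25 °C (3.99 ± 0.27). MYB107, a regulator of seed coat suberin, had 97.2, 129 and 93.7 at 27 °C, against 18, 10.2 and 4.98 at 25 °C (3.28 ± 0.39). ASFT, which adds ferulate to the polymer, had 890, 1180 and 895 at 27 °C, against 342, 348 and 222 at 25 °C (1.7 ± 0.18). The synthesis genes GPAT5, CYP86B1 and CYP86A1 rose by 1.93, 1.56 and 1.33. Levels stayed modest, with a sum of 260, 295 and 265 TPM at 27 °C, against 197, 163 and 177 TPM at 25 °C.

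Flavonoid genes went the other way. Of 19 genes for the proanthocyanidin pigment of the inner coat, 15 were lower at 27 °C (background 10%) and 2 higher, with a median log2 fold change of -0.80. Their summed level was 5031, 4344 and 4752 TPM at 27 °C, against 7166, 8373 and 7745 TPM at 25 °C. The count of lower genes was 13 to 16 when 1 library was left out.

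The decrease covered the synthesis steps in pathway order. Chalcone synthase (CHS), which opens the pathway, had 23089, 15234 and 20194 normalised counts at 27 °C, against 43040, 52600 and 46496 at 25 °C (-1.28 ± 0.14, adjusted p = 8.72e-18). Chalcone isomerase (TT5) fell by 1.38, F3H by 1.23, DFR by 1.12, LDOX by 0.82 and BAN, the reductase specific to proanthocyanidins, by 0.80 on the log2 scale. TT12, which moves the precursors into the vacuole, had 361, 151 and 361 at 27 °C, against 1002, 1680 and 1050 at 25 °C (-2.09 ± 0.45). AHA10, the proton pump behind that transport, fell by 0.99. TT10, the laccase that oxidises the finished precursors late in coat development, was higher, at 15726, 20713 and 16456 at 27 °C, against 8474, 4302 and 6040 at 25 °C (1.49 ± 0.31). Among the regulators TT16 (-0.95) and TT2 (-0.74) were lower, TT8 slightly higher (0.28), and TTG1 had 781, 819 and 835 at 27 °C, against 956, 825 and 825 at 25 °C. 

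**Figure D2:**
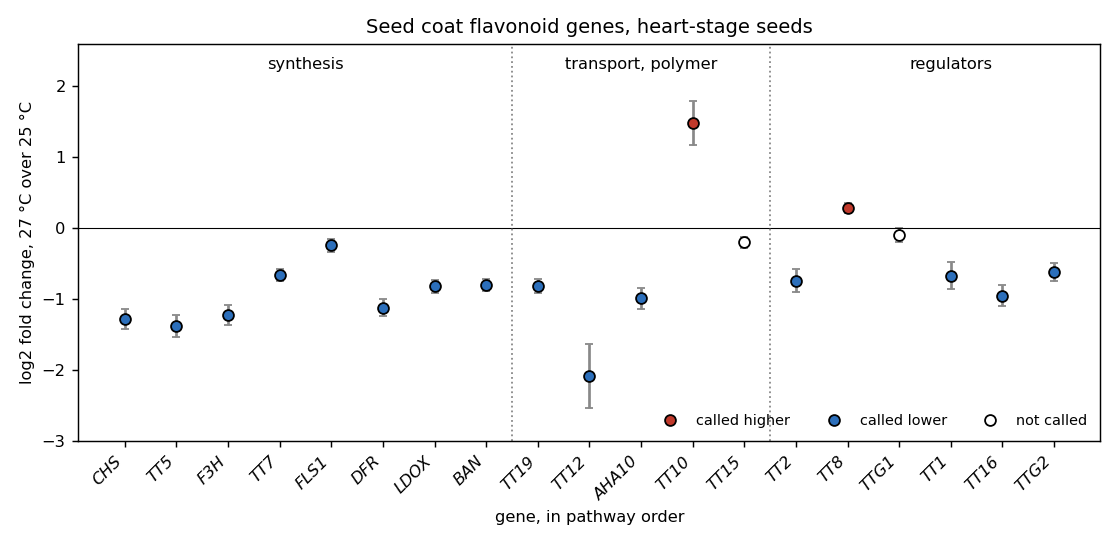
Log2 fold change of 27 °C over 25 °C (± SE, 3 libraries each) for the 19 seed coat flavonoid genes in pathway order, with called genes filled. TT12 lies lowest at -2.09 and TT10 highest at 1.49; TTG1 and TT15 were not called.

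Heat shock genes were the second broad group that rose. Of 18 heat shock factors tested 4 were higher and 0 lower. HSFA2, the factor that sustains the response in Arabidopsis, had 291, 331 and 309 normalised counts at 27 °C, against 7.80, 6.14 and 18.9 at 25 °C (4.82 ± 0.31, adjusted p = 2.4e-52). HSFB2A, HSFB2B and HSFB1, of the class that mostly represses, rose by 1.27, 1.06 and 0.56. The constitutive factors HSFA1A, HSFA1B, HSFA1D and HSFA1E lay between -0.17 and 0.19 and were not called; HSFA1A had 236, 213 and 221 at 27 °C, against 214, 226 and 229 at 25 °C.

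Of 17 small heat shock protein genes tested, 14 were higher and 0 lower, with a median of 2.47 and a summed level of 285, 396 and 372 TPM at 27 °C, against 50.7, 39.1 and 116 TPM at 25 °C. These proteins hold unfolding clients in solution. HSP17.6-CII had 111, 181 and 127 normalised counts at 27 °C, against 2.93, 3.07 and 12.9 at 25 °C (4.47 ± 0.46). The mitochondrial HSP23.5 had 357, 448 and 478 at 27 °C, against 13.7, 10.2 and 65.7 at 25 °C (3.84 ± 0.80). HSP17.4-CI had 167, 290 and 275 at 27 °C, against 18, 3.07 and 63.7 at 25 °C (3.12 ± 1.04, adjusted p = 0.0156, kept in 2 of the 6 fits without 1 library). In each the highest 25 °C library was replicate 3. The same library held 198 normalised counts of HSP22, an endoplasmic reticulum form, against 13.7 and 3.07 in the other 25 °C libraries and 166, 280 and 266 at 27 °C, and HSP22 received no adjusted p. Without replicate 3 of 25 °C the count stayed at 14; it was 9 without replicate 2 or replicate 3 of 27 °C. HSP15.4, a small heat shock protein gene, had 53.9, 40.2 and 50.2 at 27 °C, against 45.8, 58.3 and 38.8 at 25 °C.

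Large chaperones and their partners changed less in fold and stood at far higher levels. Of 24 tested 15 were higher and 2 lower. HSP70-4 had 6625, 8134 and 7944 normalised counts at 27 °C, against 789, 526 and 1870 at 25 °C (2.83 ± 0.57). HSP101, the disaggregase needed for acquired thermotolerance, had 2029, 2322 and 2363 at 27 °C, against 439, 427 and 736 at 25 °C (2.07 ± 0.18, adjusted p = 1.13e-26). HSP90.1, the inducible cytosolic HSP90, had 4665, 5712 and 5570 at 27 °C, against 786, 657 and 1840 at 25 °C (2.28 ± 0.50). The co-chaperones ROF2 and HOP3 rose by 2.72 and 2.19 and the regulators MBF1C and DREB2A by 1.89 and 1.23. Other HSC70 and HSP90 genes varied. HSC70-1 rose by 0.39 (not called without replicate 3 of 27 °C, adjusted p = 0.0653), and HSP90.3 had 10941, 10928 and 11807 at 27 °C, against 8729, 10153 and 14154 at 25 °C. With counts scaled over all 27 libraries, HSC70-3 had 3585, 3962 and 4156 at 27 °C, against 1533, 1483 and 2383 at 25 °C. On that scale HSP90.2 had 9025, 9627 and 10095 at 27 °C, against 6084, 6964 and 8299 at 25 °C. The 2 lower genes, HOP1 (-0.21) and HSP90.4 (-0.44), were called without replicate 1 of 25 °C only; leaving out any other library gave 0 lower genes. In the endoplasmic reticulum, 1 of 17 chaperone and stress genes was higher and 3 lower. The higher gene was BIP3, the stress-induced BiP (33.8, 47.0 and 37.7 at 27 °C, against 15.6, 8.19 and 4.98 at 25 °C). The calreticulins CRT1B (-0.33) and CRT1A (-0.21) were lower, and BIP1 had 11878, 12121 and 12483 at 27 °C, against 10504, 9453 and 13848 at 25 °C. Without replicate 3 of 25 °C, 4 genes of this group were higher.

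A heat shock element, searched as GAANNTTC or TTCNNGAA, each of which reads the same on both strands, was present in 8 of the 17 small heat shock protein promoters (47.1%) and 11 of the 24 large chaperone promoters (45.8%). Over all genes tested the share was 18.8%, and it was 20.7% for higher and 18.7% for lower genes. Adjacent matches overlap in a run of alternating repeats. The 250 bases before the start of HSFA2 (chr2:11135374-11135623, plus strand) and of HSP17.4-CI (chr3:16984868-16985117, minus strand; the gene overlaps another gene) are shown, from RefSeq TAIR10.1, as an inducible factor and a target class with such runs in capitals.
HSFA2: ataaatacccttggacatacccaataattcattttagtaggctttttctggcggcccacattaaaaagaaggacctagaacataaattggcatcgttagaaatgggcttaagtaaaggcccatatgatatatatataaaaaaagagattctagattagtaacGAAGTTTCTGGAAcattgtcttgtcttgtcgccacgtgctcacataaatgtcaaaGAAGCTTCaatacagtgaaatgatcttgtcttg
HSP17.4-CI: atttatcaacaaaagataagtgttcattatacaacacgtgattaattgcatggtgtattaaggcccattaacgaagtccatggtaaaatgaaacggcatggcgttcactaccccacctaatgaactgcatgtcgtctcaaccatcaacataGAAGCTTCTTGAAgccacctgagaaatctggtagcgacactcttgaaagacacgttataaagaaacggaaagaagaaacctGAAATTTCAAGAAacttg
HSFA2 held 3 matches, the nearest beginning 33 bases before the start, and HSP17.4-CI held 4. HSP17.6-CII, the small heat shock protein gene with the largest rise, held 0 matches in the window searched.

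**Figure D3:**
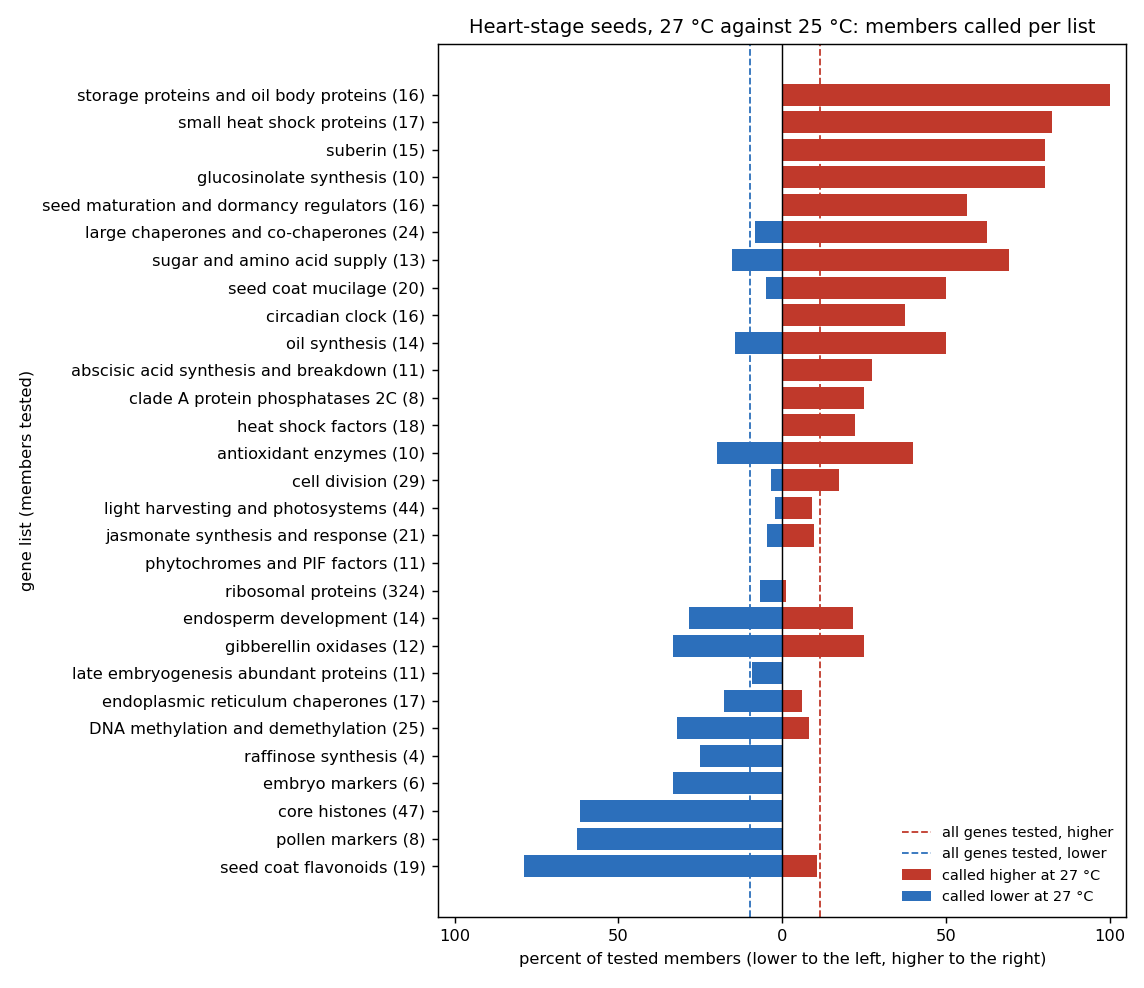
Percent of tested members called higher (red, right) or lower (blue, left) at 27 °C for 29 gene lists, with the number tested in brackets; dashed lines mark all genes tested (11.5% higher, 10% lower). Storage and oil body proteins stand at the top with 16 of 16 higher and seed coat flavonoids at the bottom with 15 of 19 lower.

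Of 12 gibberellin oxidases tested, 3 were higher and 4 lower. Both synthesis genes with the largest increases are seed genes: GA3OX4 had 229, 196 and 176 normalised counts at 27 °C, against 56.6, 44.0 and 26.9 at 25 °C (2.24 ± 0.26), and GA20OX3 had 2777, 3438 and 2931 at 27 °C, against 1751, 1198 and 1569 at 25 °C (1.02 ± 0.14). GA2OX4, which inactivates the hormone, had 49.7, 32.3 and 39.6 at 27 °C, against 69.2, 83.9 and 106 at 25 °C (-1.09 ± 0.29). The lower count was 1 without replicate 1 of 27 °C and 2 without replicate 2 of 27 °C, replicate 1 or replicate 2 of 25 °C. Of 10 glucosinolate genes 8 were higher and 0 lower. CYP79F1, an entry enzyme for methionine-derived glucosinolates, had 3070, 4032 and 2867 at 27 °C, against 1057, 257 and 529 at 25 °C (2.44 ± 0.57). The chain elongation genes BCAT4 and MAM1 rose by 2.51 and 2.23, and their regulators MYB29 and MYB28 by 2.51 and 0.65. Of 21 jasmonate genes 2 were higher, among them AOC3 (876, 925 and 870 at 27 °C, against 422, 441 and 449 at 25 °C), and 1 was lower, JAZ9 (-0.62). The higher count was 1 without replicate 1 or 3 of 27 °C or replicate 2 or 3 of 25 °C, and the lower count was 2 without replicate 2 or 3 of 25 °C. VSP1, a jasmonate-induced storage protein of green tissue, had 4087, 2404 and 1808 at 27 °C, against 5359, 2642 and 14401 at 25 °C, replicate 3 of 25 °C being far above the other libraries.

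The endosperm list split. Of 14 tested, 3 were higher: ALE1 (820, 856 and 970 at 27 °C, against 544, 625 and 491 at 25 °C; 0.67 ± 0.12), ICE1 (0.53) and its partner ZOU (0.42), which act in the breakdown of the endosperm and in the embryo surface. The 4 lower genes are active in the young endosperm or the central cell: FIS2, a Polycomb subunit, with 113, 57.8 and 93.7 at 27 °C, against 263, 337 and 285 at 25 °C (-1.74 ± 0.23, adjusted p = 3.71e-12), and PHE2 (-0.84), FWA (-0.65) and PHE1 (-0.46, kept in 3 of the 6 fits without 1 library). AGL62, which holds back endosperm cellularization, had 64.5, 35.3 and 56.0 at 27 °C, against 58.5, 70.6 and 37.8 at 25 °C.

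Core histones fell together by a small amount. Of 47 histone genes tested 29 were lower and 0 higher, with a median of -0.32 and summed levels of 6225, 6409 and 6352 TPM at 27 °C, against 7421, 7593 and 7860 TPM at 25 °C; 22 to 27 were lower when 1 library was left out. HIS4, a histone H4 gene, had 1059, 1107 and 979 normalised counts at 27 °C, against 1589, 1666 and 1437 at 25 °C (-0.58 ± 0.09), and HTA13 fell by 0.55. With library-total scaling the histone median was -0.28. Genes of mitosis did not follow. Of 29 cell division genes 5 were higher and 1 lower; CYCA1;1 had 357, 453 and 360 at 27 °C, against 264, 280 and 267 at 25 °C (0.53 ± 0.14), and the licensing factor MCM2 was lower (-0.31, kept in 1 of the 6 fits without 1 library). The higher count dropped to 1 without replicate 2 of 27 °C or replicate 2 of 25 °C, to 2 without replicate 1 of 27 °C and to 3 without replicate 3 of 27 °C. Of 324 ribosomal protein genes 4 were higher and 22 lower (median -0.06), shares under the 11.5% and 10% of all genes tested. The lower count ranged over the 6 fits without 1 library from 3 (without replicate 3 of 27 °C) to 44 (without replicate 1 of 25 °C).

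Light harvesting and photosystem genes, the green tissue list, differed little in total: 20671, 18118 and 19961 TPM at 27 °C, against 19040, 18295 and 18635 TPM at 25 °C. Of 44 tested, 4 were higher and 1 lower, with a median of 0.01. Both shares lay under those of all genes tested (11.5% and 10%). PSAK, a photosystem subunit, was the clearest, at 3705, 3449 and 3556 normalised counts at 27 °C, against 3040, 2935 and 3028 at 25 °C (0.25 ± 0.06). Only 1 gene was higher without replicate 1 of 27 °C or replicate 2 of 25 °C. Of 25 DNA methylation genes 2 were higher and 8 lower. CLSY2 and CLSY1, which recruit the polymerase of small RNA precursors, rose by 0.80 and 0.50, while CLSY3, the reproductive member, had 3466, 3323 and 3423 at 27 °C, against 4788, 5011 and 4332 at 25 °C (-0.47 ± 0.08), and AGO9 fell by 0.25. The DNA demethylase ROS1 had 1523, 1456 and 1910 at 27 °C, against 2062, 2239 and 1859 at 25 °C (-0.33 ± 0.12, adjusted p = 0.0329, kept in 2 of the 6 fits without 1 library), with overlap between the groups. The methyltransferase CMT3 had 1911, 2115 and 2188 at 27 °C, against 1662, 1697 and 2082 at 25 °C (adjusted p = 0.222). The lower count was 2 without replicate 2 of either temperature, 3 without replicate 1 of 27 °C, 4 without replicate 3 of either temperature and 5 without replicate 1 of 25 °C, and the higher count was 5 without replicate 3 of 25 °C.

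Of 16 clock genes 6 were higher and 0 lower, a count that ran from 2 (without replicate 3 of 27 °C) to 9 (without replicate 1 of 25 °C) and was 3 without replicate 1 of 27 °C and 4 without replicate 3 of 25 °C. The morning gene LHY had 387, 418 and 398 at 27 °C, against 250, 252 and 253 at 25 °C (0.67 ± 0.12), and ELF4, of the evening complex, rose by 0.82. Time of day at harvest was not given in the sources used here. Of 11 phytochrome and PIF genes, which take part in sensing warmth, 0 were called by DESeq2, and edgeR called 2 lower, PHYA (-0.16) and PHYE (-0.24). Of 10 antioxidant genes 4 were higher and 2 lower. PER1, a seed peroxiredoxin, had 43.3, 83.3 and 42.5 at 27 °C, against 1.95, 0 and 6.97 at 25 °C (4.24 ± 0.68), and APX2, a heat-induced ascorbate peroxidase, had 56.0, 70.5 and 60.8 at 27 °C, against 3.90, 1.02 and 8.96 at 25 °C (3.75 ± 0.53). APX1, the main cytosolic form, was lower (-0.23); the lower count was 0 without replicate 1 or 2 of 27 °C or replicate 2 of 25 °C and 1 without replicate 3 of 27 °C or replicate 1 of 25 °C.

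The changes were then placed on a scale of normal development, the change between heart and bent seeds at 23 °C, which shares no library with the comparison of 27 °C and 25 °C. DESeq2 called 45.2% of 20170 genes, 22.4% higher and 22.8% lower, in bent than in heart seeds at 23 °C. Of the 2274 genes called higher at 27 °C and tested in both, 58.4% were also higher and 6.5% lower in bent seeds. Of the 2040 genes called lower at 27 °C, 62.6% were also lower and 4.8% higher in bent seeds. Over the 19883 genes tested in both comparisons these shares were 22.0% higher and 23.1% lower. Replicate 1 of heart seeds at 23 °C stood apart, with 15473 normalised counts of CRU1 against 208 and 112 in the other 23 °C heart libraries; without it the shares were 59.6% and 59.7%.

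**Figure D4:**
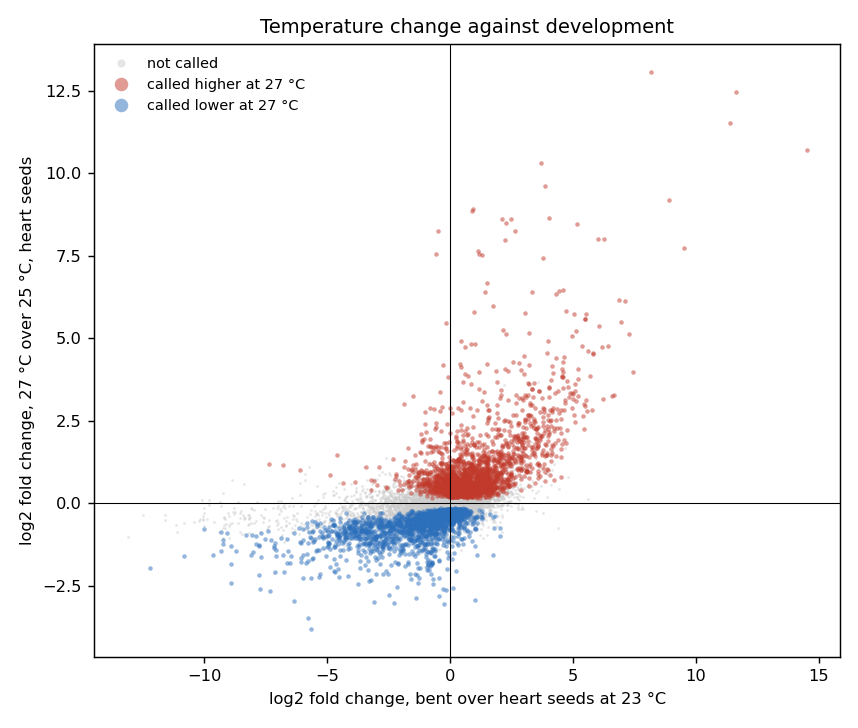
Each point is a gene: log2 fold change of bent over heart seeds at 23 °C (horizontal) and of 27 °C over 25 °C in heart seeds (vertical), with genes called at 27 °C in colour. Red points lie mostly to the right, 58.4% being also higher in bent seeds, and blue points mostly to the left, 62.6% being also lower.

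Heart levels were then given as a percent of the level in bent seeds of the same temperature. The reference thus differed between 27 °C and 25 °C. Storage and oil body genes in heart seeds held 3.04 to 19.5% of their bent level at 27 °C (median 5.09%) and 0.0348 to 4.96% at 25 °C (median 0.228%). Mucilage genes held a median of 97.2% of the bent level at 27 °C and 75.3% at 25 °C, while flavonoid genes stood above it, at a median of 279% and 396%. Suberin genes held a median of 12.2% of the bent level at 27 °C and 150% at 25 °C. The order was the reverse for storage and mucilage genes. Bent levels of suberin genes were themselves higher at 27 °C (median log2 fold change 5.04). In heart seeds 12 of the 15 suberin genes tested were also higher at 27 °C. For CRU1 the mean was 3466 normalised counts (scaled over all 27 libraries) in heart seeds of 27 °C and 63737 in bent seeds of 27 °C, against 8.90 in heart and 14976 in bent seeds of 25 °C. For the heat shock factor HSFA2 the mean was 269 in heart and 238 in bent seeds of 27 °C, against 9.53 and 19.7 in those of 25 °C. Its heart level was thus 113% of the bent level at 27 °C and 48.5% at 25 °C. The stage of the embryos within each library is known only from the label, so an effect of temperature and a difference in how far the seeds had developed cannot be told apart in these libraries.

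The same step of temperature was last compared between stages, with 18 libraries of 27 °C and 25 °C in 1 fit and a test of the difference itself. The change differed between heart and bent seeds for 15.5% of 21215 genes (2023 higher in heart, 9.54%, and 1263 lower, 5.95%) and between heart and mature seeds for 22.6% (3084 higher, 14.5%, and 1712 lower, 8.07%). Of the genes called higher in heart seeds, 38.7% were also called higher in bent seeds (33.7% of the bent list) and 33.1% in mature seeds (23.3% of the mature list), where 12.7% of all genes were higher in bent seeds and 3337 of 21215 in mature seeds. Of the lower genes, 31.2% were also lower in bent (19.2% of the bent list) and 37.4% in mature seeds (17.3% of the mature list), where 3329 of 21215 genes were lower in bent seeds and 20.9% in mature seeds. Of 20456 genes tested in heart seeds, 556 of the 2352 higher and 445 of the 2046 lower were called in the same direction at all 3 stages. How many genes would share a direction at all 3 stages by the separate shares alone was not computed.

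Of the 14 small heat shock protein genes higher in heart seeds, 13 were also called higher in bent and 11 in mature seeds, and 0 were lower at either stage. Over that list the change differed from bent seeds for 3 and from mature seeds for 2. Storage and oil body genes had a median change of 5.45 in heart seeds, which compares with 1.7 for bent and 0.30 for mature ones: 9 of the 16 were higher in bent and 0 in mature seeds, 0 were lower at either, and the heart change differed from bent seeds for 14 and from mature seeds for all 16. CRU1, with a log2 fold change of 8.61 in heart seeds, had 2.09 in bent and 0.43 in mature seeds. MFT, at 5.36, had 0.32 and -0.53. Suberin genes had their largest median in bent seeds (5.04, against 1.61 in heart seeds in the same fit); MYB9, a suberin regulator, had 1.14 in heart (not called without replicate 2 of 27 °C, adjusted p = 0.0886) and 9.52 in bent seeds (adjusted p of the difference = 3.85e-20). Of the 10 mucilage genes higher in heart seeds, 5 were lower and 0 higher in bent seeds, and 7 were lower and 2 higher in mature seeds, the 2 being CESA5 and MUCI21. GATL5, at 3.15, had -0.22 and -2.50. Of the light harvesting genes 40 were lower in bent and 41 in mature seeds, against 1 in heart seeds, and the difference was called for 33 and 37. Flavonoid genes were lower in 4 cases in bent and 9 in mature seeds, against 15 in heart seeds.

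**Figure D5:**
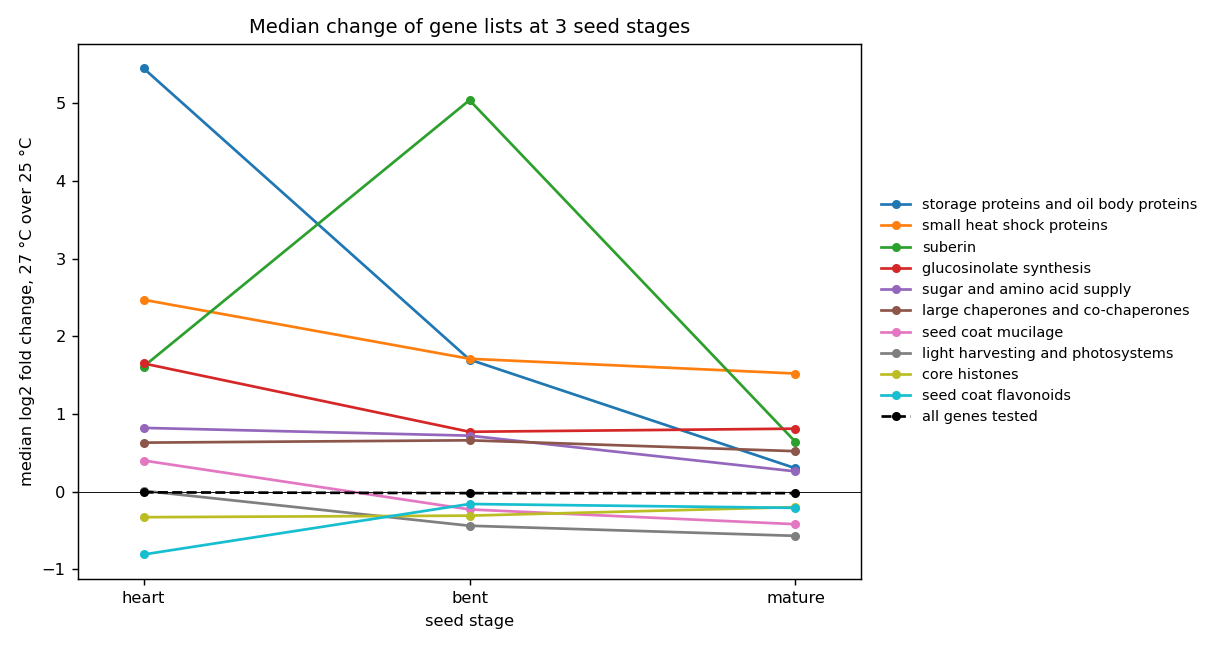
Median log2 fold change of 27 °C over 25 °C at the heart, bent and mature stages for 10 gene lists and for all genes tested (dashed), from the fit of 18 libraries. Storage and oil body genes start at 5.45 in heart seeds and reach 0.30 in mature seeds, small heat shock proteins stay at 1.52 or above, and suberin peaks at 5.04 in bent seeds.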

How the data were processed

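The authors deposited estimated counts (expected counts) per Araport11 transcript, made with Salmon (1 column per library, replicates not pooled, not normalised); 61.5% of values are not whole. Estimates of 48268 transcripts were summed per locus (27587 loci) and rounded. All 27 columns were mapped, leaving 0. Names, positions and promoters came from RefSeq TAIR10.1 (27392 loci matched, 99.3%). TPM was computed from the deposited counts and effective lengths. Counts of similar or overlapping genes are uncertain; strand use is not stated.

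DESeq2 1.42.0 in R 4.3.3, the study's test, was run on the 6 libraries without covariates, on 20456 genes that reached 10 counts in 3 or more libraries. Benjamini-Hochberg adjusted p under 0.05 was called, two-sided, with no fold threshold; an adjusted p was withheld for 2 genes. Fits of 18 libraries tested differences between stages. edgeR 4.0.16 was an alternative. For lower bounds, a group whose libraries all lay at or under 3 counts was set to 3. The depth of each library limits precision for genes under about 10 counts. Values after ± are DESeq2 standard errors of the log2 fold change, which include the estimated spread between libraries.

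The growth temperature up to flowering and the sequencer are given differently in labels and methods. Named genes were the 10 per direction with the largest absolute log2 fold change, a mean normalised count of at least 100 and no overlap between groups, and up to 5 called members per direction and the most abundant uncalled member of each list; other members named were chosen after their values were seen. Members and lists were chosen with earlier results of these data known. Scripts were tested on simulated data.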

Additional observations from a re-analysis of the deposited data

Results flagged for a closer look

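The change between 27 °C and 25 °C differed between stages by its own test (DESeq2 interaction). It was higher in heart than in bent seeds for 2023 genes and lower for 1263, and higher in heart than in mature seeds for 3084 and lower for 1712. Groups had 3 libraries, too few to identify a single deviating value reliably.

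Among the genes with the largest increases, the heart change exceeded the bent and the mature change, on the log2 scale, by 12.43 and 15.66 for AT1G62220, 12.71 and 14.75 for AT1G62070, 10.67 and 14.43 for AT5G05020, 11.31 and 14.61 for RLP55, and 8.06 and 10.31 for AT1G31670. The differences were 9.01 and 11.07 for GH9B15, 5.56 and 8.59 for CRU2, 5.25 and 8.55 for CRU3, 6.40 and 8.83 for AT1G03103, and 6.51 and 8.17 for CRU1. Fitted values of genes at 0 counts in 25 °C heart seeds depend on the model and are no bounds. The 10 genes per direction were chosen by their change in these same heart libraries, which favours a larger change in heart seeds. Among the largest decreases, the difference was -4.44 from mature seeds for HAK5, which rests on mature means of 0.804 normalised counts at 27 °C and 0.412 at 25 °C and so gives no usable size, -2.28 from bent seeds for ASN1, -2.52 from bent and -4.88 from mature seeds for THI2.1, -2.29 and -2.12 for MBP2, and -2.48 and -3.41 for PGL5.

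Of 124 other named list members, 68 differed from bent and 68 from mature seeds, where 15.5% and 22.6% of all genes did; most of these members were named because they were called in heart seeds. In the opposite direction 16 were called in bent and 30 in mature seeds. Higher in heart and lower in bent seeds were BIP3 (difference 3.93), GA3OX4 (2.63), PMEI6 (2.58), MUM4 (2.29), MUM2 (1.72), L1L (1.71), EEL (1.61), BCCP2 (1.04), CLSY1 (0.96), LHCB1.2 (0.80), DGAT1 (0.65), PSAK (0.51) and LHCB6 (0.51). Lower in heart and higher in bent seeds were LEA27 (-1.05), PDIL1-2 (-0.60) and APX1 (-0.55).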

How the results depend on the processing

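Counts of higher and lower genes stayed within 1.5 times under edgeR, library-total scaling, both count filters, no independent filtering and the fit of all 27 libraries. Leaving out 1 library gave 1632 to 2272 higher and 1236 to 1977 lower genes. A fold minimum of 1 on the log2 scale left 812 and 407. At an adjusted p under 0.01, 1350 genes were lower, and 771 and 959 had a lower change in heart than in bent and in mature seeds. Replicate numbers are shared between the temperatures but did not pair the libraries (correlations of same-numbered deviations -0.069, -0.297 and -0.248); with the replicate number as a block, 1355 genes were higher, 944 lower, and 816 and 974 had a lower change than in bent and mature seeds. No library correlated best with its own number.

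Of 144 named genes, 130 kept the call under edgeR, 113 in the fit of all 27 libraries, 134 under library-total scaling and 106 in all 6 fits without 1 library; 0 reversed. Counts of list members moved by over 1.5 times in 90 of 406 comparisons. With a log2 fold minimum of 1 on the change from heart to bent seeds, 38.7% of the higher genes were higher in bent seeds, against 8.6% of all genes, and 43.2% of the lower genes were lower, against 12.9% of all genes. The chloroplast difference ranged from -0.000972 to 0.000344 percentage points when 1 library was left out. The cause of these shifts was not tested. With 3 libraries per group, small changes of genes with few counts may not be detectable, and 1 embryo stage label covers tissues that were not separated.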

Other observations

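Transcripts of the mitochondrial genome took 0.00627, 0.00769 and 0.00744% of the counts at 27 °C, against 0.00368, 0.00390 and 0.00339% at 25 °C, higher in 3 of 3 libraries (exact permutation test, two-sided, p = 0.1, the smallest that 3 against 3 libraries allow). Those of the chloroplast genome took 0.00382, 0.00353 and 0.00403% at 27 °C, against 0.00333, 0.00596 and 0.00357% at 25 °C (exact p = 0.9). Libraries were made after enrichment of messenger RNA, so these shares do not measure the organelles' own level.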
